A study of Mus musculus with 4 samples.

Results

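The spliceosome is the machine that removes introns from pre-mRNA. Small nuclear ribonucleoproteins (snRNPs), each a small nuclear RNA with its proteins, assemble on an intron in turn: U1 at the 5′ splice site, U2 at the branch site, and then the tri-snRNP of U4, U6 and U5. The Prp19 complex joins when the machine is activated for catalysis. Genes for these proteins are active in most cells, and dividing embryonic stem cells rely on them. The genes described here were chosen by name from the PRO-seq count table: every symbol that starts with Snrp, with Sf3a or Sf3b and a digit, or with Prpf, together with U2af1, U2af2, Snrnp200, Eftud2, Ddx23, Cdc5l, Plrg1, Bcas2, Crnkl1, Xab2 and Aqr. This gave 44 of 12486 genes, and all 44 passed the filter on low counts.

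PRO-seq maps RNA polymerase engaged on genes by extending its nascent RNA in isolated nuclei, so a count reflects transcription and not the amount of mRNA or protein. The cells were diploid mouse embryonic stem cells that express the auxin receptor OsTir1 and carry an auxin-inducible degron at the N terminus of Zfp574, a zinc-finger protein. The 2 control libraries came from such cells without treatment (0 h) and the 2 depletion libraries from the same line after 6 h with 500 µM of the auxin indole-3-acetic acid (IAA), 2 biological replicates each. Both groups carry the tag and OsTir1, so an effect of auxin itself and an effect of losing Zfp574 cannot be told apart here.

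The controls held 3298864 and 3616429 counts in total, and the deeper depletion libraries 6045216 and 5670904. Transcription of Zfp574 itself gave 80 and 130 counts without IAA and 195 and 219 with it, in the deeper libraries. Scaled to a common library size, these were 24.0 and 35.5 CPM against 32.8 and 39.0 CPM, and the groups overlapped. The log2 fold change was 0.25 (edgeR quasi-likelihood adjusted p 0.406). These values do not report on the protein that the degron removes. Markers of embryonic stem cells (11 of 12 listed genes analysed) summed to between 5327 and 5488 CPM (counts scaled to a common TMM library size) in each library, whereas those of fibroblasts (1 of 6 analysed) summed to between 0.504 and 2.18 CPM, those of endoderm (3 of 6) to between 12.6 and 15.3 CPM, those of mesoderm (2 of 5) to between 9.92 and 12.3 CPM, those of trophoblast (3 of 6) to between 32.5 and 39.8 CPM and those of neural cells (4 of 5) to between 54.4 and 69.6 CPM. The neural sums were higher in both depletion libraries (68.2 and 69.6 CPM) than in both controls (54.4 and 61.1 CPM), as were the mesoderm sums (10.8 and 12.3 against 9.92 and 10.6 CPM), while the endoderm sums were lower (12.6 and 12.99 against 14.4 and 15.3 CPM). The part of these markers in the results below was not tested.

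Most of these genes were within a narrow range of their control level after 6 h of depletion. The 2 that passed the test across all genes both fell. They were Sf3a1, a subunit of the SF3a complex of the U2 snRNP, and Snrpg, a protein of the Sm ring that surrounds the small nuclear RNAs. The promoters of both genes are shown first, together with that of Sf3b1, a U2 subunit whose levels after depletion lay on the other side of the controls. Sf3b1 was chosen for display after its values had been seen. Each line holds the 250 bases before the RefSeq start site (build GRCm38.p6, the assembly behind mm10), read 5′ to 3′ on the strand of the gene, and capitals mark matches to the promoter sequences searched for below.

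Sf3a1: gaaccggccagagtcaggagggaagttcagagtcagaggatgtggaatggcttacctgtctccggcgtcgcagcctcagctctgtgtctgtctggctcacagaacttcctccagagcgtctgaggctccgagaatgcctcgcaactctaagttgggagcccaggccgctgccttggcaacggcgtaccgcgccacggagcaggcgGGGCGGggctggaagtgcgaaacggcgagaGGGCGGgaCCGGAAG
Snrpg: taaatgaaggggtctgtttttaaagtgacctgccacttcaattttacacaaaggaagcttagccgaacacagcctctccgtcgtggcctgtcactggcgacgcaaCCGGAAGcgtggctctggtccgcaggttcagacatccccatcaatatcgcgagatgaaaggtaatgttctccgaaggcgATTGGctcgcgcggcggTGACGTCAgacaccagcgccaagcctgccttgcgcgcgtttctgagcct
Sf3b1: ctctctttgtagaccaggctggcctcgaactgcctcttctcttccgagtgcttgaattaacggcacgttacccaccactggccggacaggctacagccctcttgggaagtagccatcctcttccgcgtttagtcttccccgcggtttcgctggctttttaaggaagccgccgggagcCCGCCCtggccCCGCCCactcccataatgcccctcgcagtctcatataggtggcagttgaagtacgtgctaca

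The Sf3a1 sequence lies at chr11:4160104-4160353 on the plus strand, that of Snrpg at chr6:86371290-86371539 on the plus strand and that of Sf3b1 at chr1:55027479-55027728 on the minus strand. The start sites lay 4, 236 and 3 bases from the GENCODE M21 gene starts, so that the Snrpg window depends on which start is used. The last bases before the Sf3a1 start spell CCGGAAG, the core sequence bound by ETS factors, and it is preceded by GC boxes (GGGCGG) at -45 and -15, counted from the start site. Snrpg also holds CCGGAAG, at -145, and a pair of overlapping matches to the cyclic AMP response element core (TGACGT) on opposite strands between -49 and -42. Of the sequences searched for, Sf3b1 holds GC boxes only, at -73 and -62 on the opposite strand. Of the 16 genes found below to hold CCGGAAG, 12 had a log2 fold change below 0. So did 15 of the 20 searched genes without it.

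Over the whole group, 2 of 44 genes fell and 0 rose at a threshold of 0.05 on the Benjamini-Hochberg adjusted p of edgeR quasi-likelihood, taken over all genes. Among all 11853 genes tested, 1.4% were called lower and 1.11% higher, and 2 calls are too few to set the group apart from that share. With a change of at least 2-fold required as well, 0 of 44 genes were called in either direction, and 0 reached a log2 value of -1 or below at any p. The same rule called 0.321% of all genes lower and 0% higher. DESeq2 with its own size factors, which called 0.519% of all genes lower and 0.119% higher, called 0 of the 44 genes in either direction, whereas limma-voom and edgeR's likelihood ratio test each called Sf3a1 and Snrpg lower (1.43% and 1.72% of all genes) and 0 higher (1.27% and 1.32% of all genes). At an unadjusted p under 0.05, 7 genes were lower, against 7.66% of all genes, and 3 were higher, against 8.53% of all genes.

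The median log2 fold change of the 44 genes was -0.043, with quartiles of -0.15 and 0.048, and the median of all genes tested was -0.0021. Below 0 were 29 of the 44 genes and 50.6% of all genes. In 16 of the 44 genes the depletion pair was below the control pair without overlap, against 22.9% of all genes, and above it in 8, against 23.4% of all genes. For this test and scaling, the counts also bound the changes that could have been missed. The 95% interval of the log2 fold change lay inside a 2-fold change either way for 41 of the 44 genes (93.2%, and 93.0% of all genes), and inside a 1.5-fold change for 37 of them (84.1%, and 73.8% of all genes). The 3 genes whose interval reached beyond 2-fold were Crnkl1, Snrpd2 and Prpf40b, which have few counts. In DESeq2, the intervals of 38 of the 44 genes lay inside 2-fold.

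**Figure D1:**
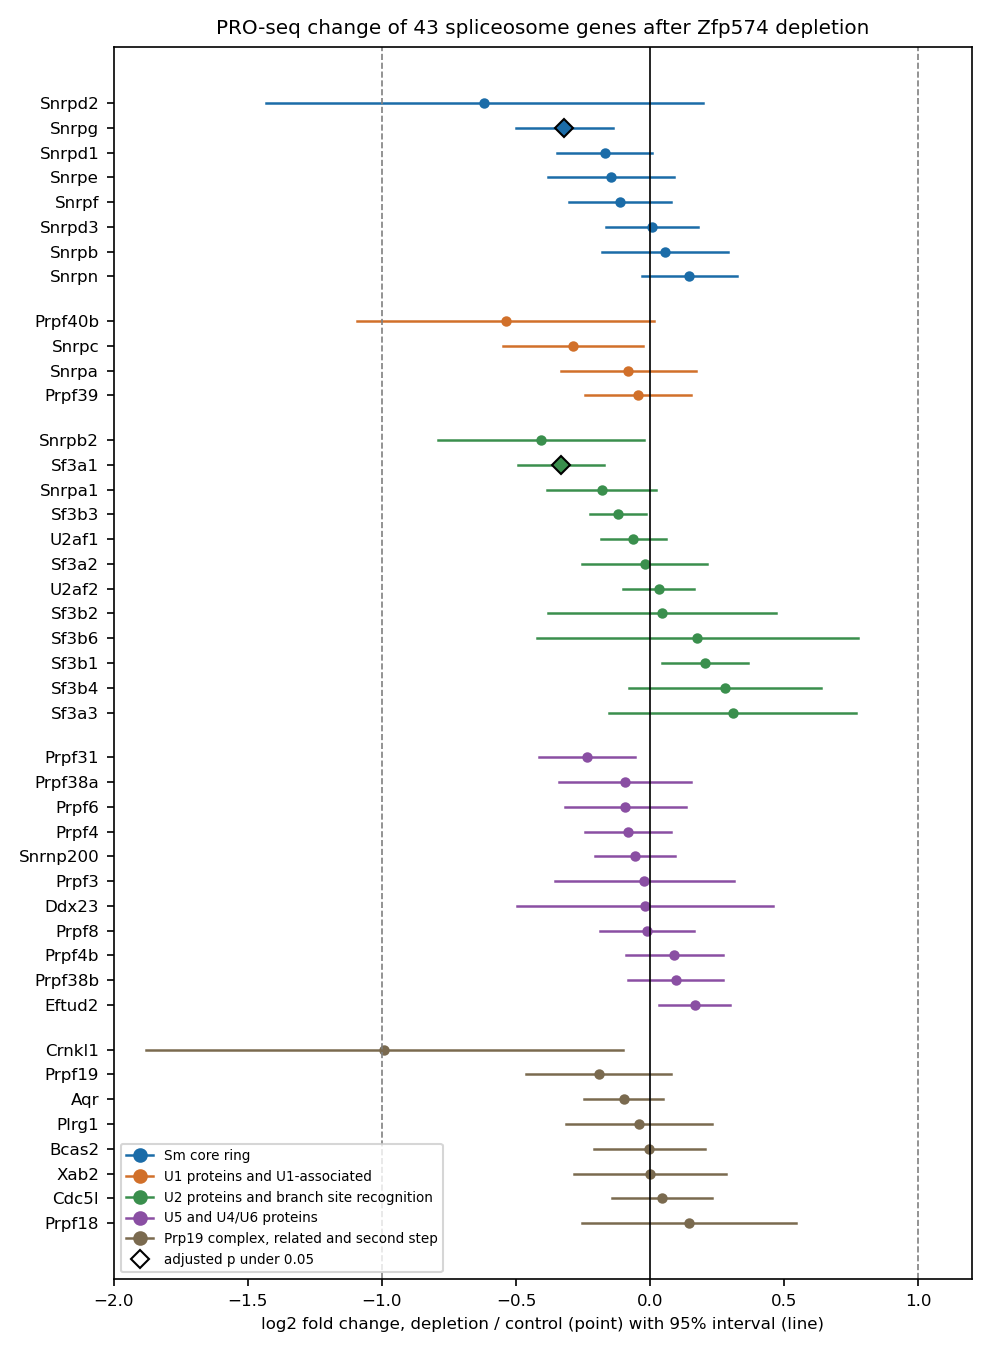
Log2 fold change (depletion over control) of 43 spliceosome genes, grouped by role, with 95% intervals from the quasi-likelihood fit and dashed lines at a 2-fold change. Sf3a1 and Snrpg, drawn as diamonds, are the 2 genes with an adjusted p under 0.05, and 40 intervals lie between the dashed lines.

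Levels between genes were compared as CPM per kilobase of the annotated gene. The methods describe counting reads over the transcript nearest each corrected start site. Its length may differ from that of the annotated gene, so densities and ranks are approximate. U2af1, the small subunit of the factor that reads the 3′ splice site, was densest at 19.3 CPM per kb, ahead of Sf3b3 at 11.1 and Snrpf at 10.3. The median was 2.92 CPM per kb. Crnkl1 was lowest at 0.140 CPM per kb, below Prpf40b at 0.280 and Prpf18 at 0.435. As plain CPM, Sf3b3 was highest with a mean of 404 over the 4 libraries and Crnkl1 lowest with 2.46.

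**Figure D2:**
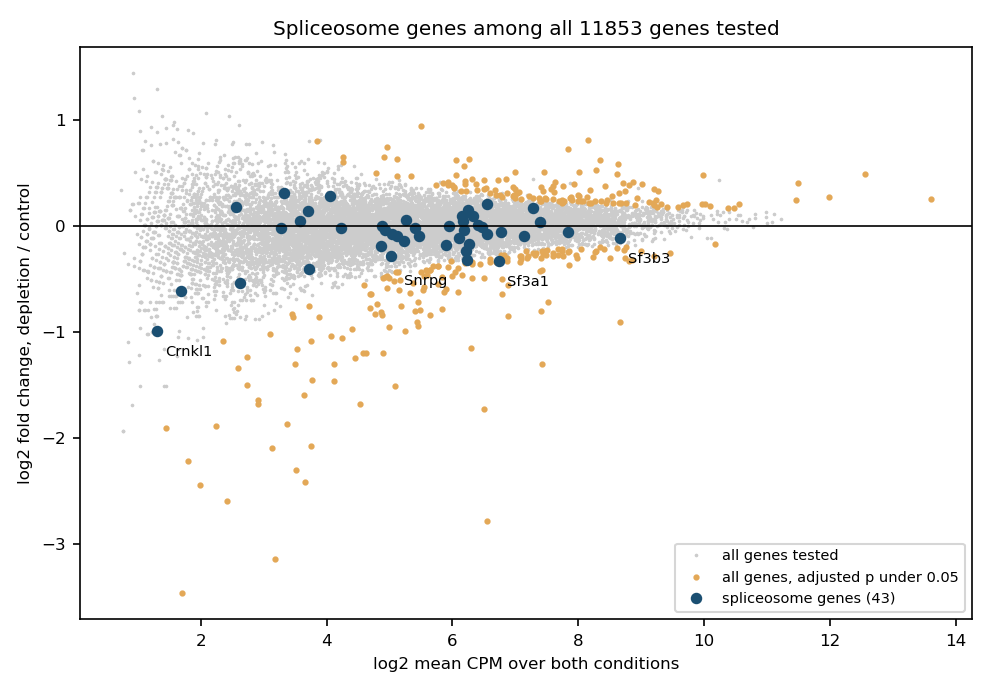
Log2 fold change against log2 mean CPM for all genes tested, with genes at an adjusted p under 0.05 in orange and 43 spliceosome genes in dark blue. The spliceosome genes lie within the bulk of the genes at their level, and Crnkl1, at 2.46 CPM, lies farthest from 0.

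The Sm ring proteins, which coat the U1, U2, U4 and U5 RNAs, come from 8 of these genes. Snrpg (ENSMUSG00000057278, chromosome 6, 86371304 to 86379328, plus strand, mm10) encodes SmG. Its level was 82.6 and 83.8 CPM in control cells and 63.7 and 69.8 CPM in depleted cells. The depletion libraries lay below both controls and differed more from each other than the controls did. The log2 fold change of -0.32 (SE 0.09) equals -19.9%, with a 95% interval from -29.3% to -9.23%, and edgeR quasi-likelihood gave a Benjamini-Hochberg adjusted p of 0.0468. This call was close to the threshold. It was lost when genes were not filtered (adjusted p 0.0501), when a trend on gene length was removed (0.133), in DESeq2 (0.964) and when any 1 library was left out (0.0853 to 0.345), while the log2 fold change stayed between -0.42 and -0.25 in every setting.

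The other Sm genes did not pass the test. Snrpd1, Snrpe and Snrpf had log2 fold changes of -0.17, -0.15 and -0.11. In each the depletion pair lay below the controls without overlap, as it did in 22.9% of all genes. Snrpd3 (0.0069) and Snrpb (0.057) were close to 0, and their groups overlapped. Snrpn encodes SmN, a close relative of the SmB protein of Snrpb, at an imprinted locus. It gave 74.5 and 70.1 CPM in control cells and 78.8 and 81.2 CPM in depleted cells, and was the one Sm gene with the depletion libraries above the controls without overlap. Its log2 fold change was 0.15, with an interval from -0.031 to 0.32. Snrpd2 was thinly covered, with 17 and 10 counts against 12 and 17, or 5.11 and 2.73 CPM in control cells against 2.02 and 3.03 CPM in depleted cells. The groups overlapped, and its log2 fold change of -0.62 had an interval from -1.43 to 0.20. The value rested on which control was used. Leaving out control replicate 1 gave -0.12 and leaving out control replicate 2 gave -1.02, while leaving out depletion replicate 1 or 2 gave -0.35 or -0.93. The median of the 8 Sm genes was -0.13, and 5 of them were below 0. Only uniquely placed reads were counted, so reads from exons with near-identical copies elsewhere, such as those of Snrpb and Snrpn or of processed pseudogenes, may be missing from these values.

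Of the proteins of the U1 snRNP and its partners, 0 of 5 genes chosen by name passed the test, and their median log2 fold change was -0.081. Snrnp70 and Rbm25, which encode a U1 and a U1-associated protein, were called lower and are described below with the other splicing genes. Snrpc encodes the C protein of U1, which steadies the pairing of U1 with the 5′ splice site. Its control level was 39.7 and 32.2 CPM and its depletion level 29.4 and 29.2 CPM, a log2 fold change of -0.29 (edgeR adjusted p 0.250). Its controls differed from each other by more than the gap between the lower control and the depletion libraries. Snrpa, which encodes the A protein of U1, was at -0.081, and Prpf39, which encodes a U1-associated factor, at -0.045.

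Prpf40b encodes a relative of a yeast U1 protein. It measured 6.61 and 7.91 CPM without IAA and 5.38 and 4.63 CPM with it, from 22 to 32 counts a library. Its log2 fold change was -0.54 with an interval from -1.09 to 0.014 and an adjusted p of 0.328. The groups did not overlap, and the gene did not pass the test.

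The U2 snRNP and the factors that place it on the branch site come from 12 of the genes. Their log2 fold changes had a median of 0.0053, and 6 lay below 0. Sf3a1 (ENSMUSG00000002129, chromosome 11, 4160350 to 4182541, plus strand, mm10) encodes the largest SF3a subunit. Control cells gave 127 and 111 CPM and depleted cells 93.1 and 95.6 CPM. The groups did not overlap, and the controls were farther apart than the depletion libraries. This is a log2 fold change of -0.33 (SE 0.08), or -20.6% with a 95% interval from -29.0% to -11.3%, at a Benjamini-Hochberg adjusted p of 0.0152 by edgeR quasi-likelihood. The call was lost without control replicate 1, where the log2 fold change was -0.24 with an adjusted p of 0.214, without depletion replicate 1 (adjusted p 0.185), without depletion replicate 2 (0.111) and in DESeq2 (0.564). It held in the other alternatives at this threshold, including the one without control replicate 2, where the log2 fold change was -0.43.

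Neither partner of Sf3a1 in SF3a passed the test. Sf3a2 was at -0.021 with overlapping groups. Sf3a3 went from 9.02 and 8.73 CPM to 9.41 and 12.6 CPM, a log2 fold change of 0.31 with an interval from -0.15 to 0.77 that does not overlap that of Sf3a1. Its 2 depletion libraries differed widely, and it did not pass the test (adjusted p 0.539).

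SF3b, the complex that holds the branch site adenosine, showed values on both sides of 0, and none of Sf3b1, Sf3b2, Sf3b3, Sf3b4 and Sf3b6 passed the test. Phf5a, another SF3b subunit, taken from the lists of other splicing genes, was at 0.029 (edgeR adjusted p 0.923). Sf3b1, its scaffold, gave 86.0 and 89.0 CPM in control cells and 101.1 and 100.4 CPM in depleted cells, without overlap. Its log2 fold change was 0.20 (SE 0.08, edgeR adjusted p 0.179). Sf3b3, the gene with the most counts of all 44 (1400 and 1544 against 2305 and 2179), had 421 and 421 CPM against 387 and 388 CPM. Replicates were close to each other in both groups, and the difference was small, at -0.12 with an interval from -0.23 to -0.015, and the adjusted p was 0.232. Sf3b4 had 16.8 and 13.4 CPM against 17.5 and 19.0 CPM, a log2 fold change of 0.28 with an interval from -0.080 to 0.64. Sf3b2 (0.044) and Sf3b6 (0.18) had overlapping groups and few counts.

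Snrpb2, which encodes the B″ protein of U2, measured 15.9 and 14.2 CPM without IAA and 11.1 and 11.6 CPM with it. The groups did not overlap. Its log2 fold change was -0.41 with an interval from -0.79 to -0.023, and its adjusted p was 0.273. Snrpa1, which encodes its A′ partner, was at -0.18 and its groups did not overlap either. U2af1 and U2af2, the subunits of the heterodimer that recognises the polypyrimidine tract and the AG of the 3′ splice site, were at -0.062 and 0.031, with intervals from -0.18 to 0.059 and from -0.10 to 0.17.

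**Figure D3:**
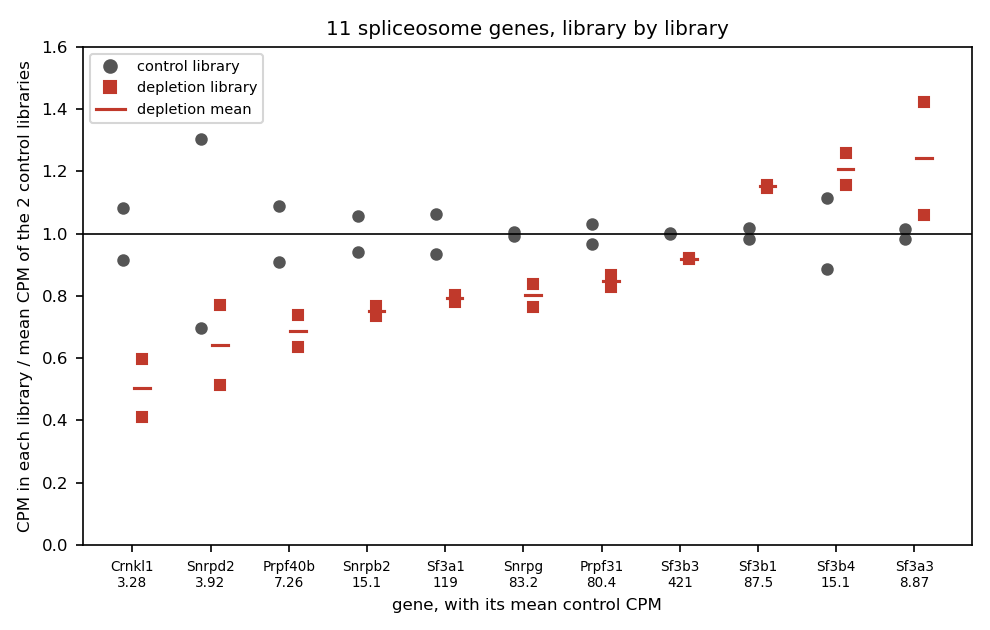
CPM in each library divided by the mean of the 2 controls for 11 genes chosen by rule, ordered by fold change, with the control mean in CPM under each name. Controls are grey circles, depletion libraries red squares and their mean a red line. The groups overlap in Snrpd2 alone, but the rule mostly takes genes with large changes, which favours separate groups. Of all genes tested, 22.9% had the depletion pair below the controls and 23.4% above, without overlap. The spread between replicates is widest in genes with few CPM.

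The proteins of U5 and of the U4/U6 particle, with Prpf38a, Prpf38b and Prpf4b, were bounded most tightly. All 11 intervals lay inside a 1.5-fold change, and 0 of 11 passed the test. The log2 fold changes ran from -0.24 to 0.17 with a median of -0.022. Txnl4a, which encodes a U5 protein, was called lower and is described below with the other splicing genes. Prpf8, a U5 protein, was at -0.011 with an interval from -0.19 to 0.16. Snrnp200, the helicase that unwinds U4 from U6, was at -0.057, and Ddx23, the helicase that helps to displace U1, was at -0.019. Prpf31, a U4/U6 protein, gave 82.9 and 77.8 CPM in control cells and 66.7 and 69.8 CPM in depleted cells, with no overlap. Its log2 fold change was -0.24 with an interval from -0.41 to -0.055, and its adjusted p was 0.163. Eftud2, the U5 GTPase, lay at the other end with 147 and 147 CPM against 164 and 167 CPM. Its log2 fold change was 0.17 with an interval from 0.034 to 0.30 and an adjusted p of 0.186.

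Among the Prp19 complex, its relatives and the later-acting factors, 0 of 8 genes passed the test. Crnkl1, which encodes a scaffold protein of the activated spliceosome, had the lowest fold change of the 44 genes and the fewest counts, 10 and 13 in control cells and 8 and 11 in depleted cells. In CPM these were 3.01 and 3.55 against 1.34 and 1.96, with no overlap. The log2 fold change was -0.99 (SE 0.43, interval from -1.88 to -0.10, edgeR adjusted p 0.245). In the 13 alternatives that tested it, the value lay between -1.27 and -0.74 and was never called. Prpf19, the ubiquitin ligase that names the complex, was at -0.19, with 33.7 and 28.4 CPM in control cells and 27.7 and 26.3 CPM in depleted cells. Cdc5l, Plrg1 and Bcas2, its partners in the core complex, were at 0.046, -0.042 and -0.0028. Xab2 was at -0.00083, and Aqr, a helicase, at -0.098.

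The centre of these values depends on how libraries are scaled. TMM places the bulk of genes near no change. With size factors recovered from the authors' mean normalized signal (their methods describe scaling on added Drosophila cells), the median of all genes moved by about the same amount as that of the 44 genes, to -0.11 and -0.15. In that fit 36 of the 44 genes were below 0, against 73.8% of all genes, 4 were called lower, against 5.89% of all genes, and 0 higher, against 0.413%. These were Sf3a1, Snrpg, Prpf31 (-0.34) and Sf3b3 (-0.22). The recovered factors differ between replicates of a condition, whereas the methods give all replicates of a condition the same factor, so these values may not stand for the spike-in scaling. With the trend on gene length removed, the median of the 44 genes was -0.014 and that of all genes -0.013. Over the 14 alternatives, 1 of which tested 33 of these genes, 19 of the 44 genes had values on both sides of 0, and of the 25 that kept their sign, 19 lay below 0 and 6 above.

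**Figure D4:**
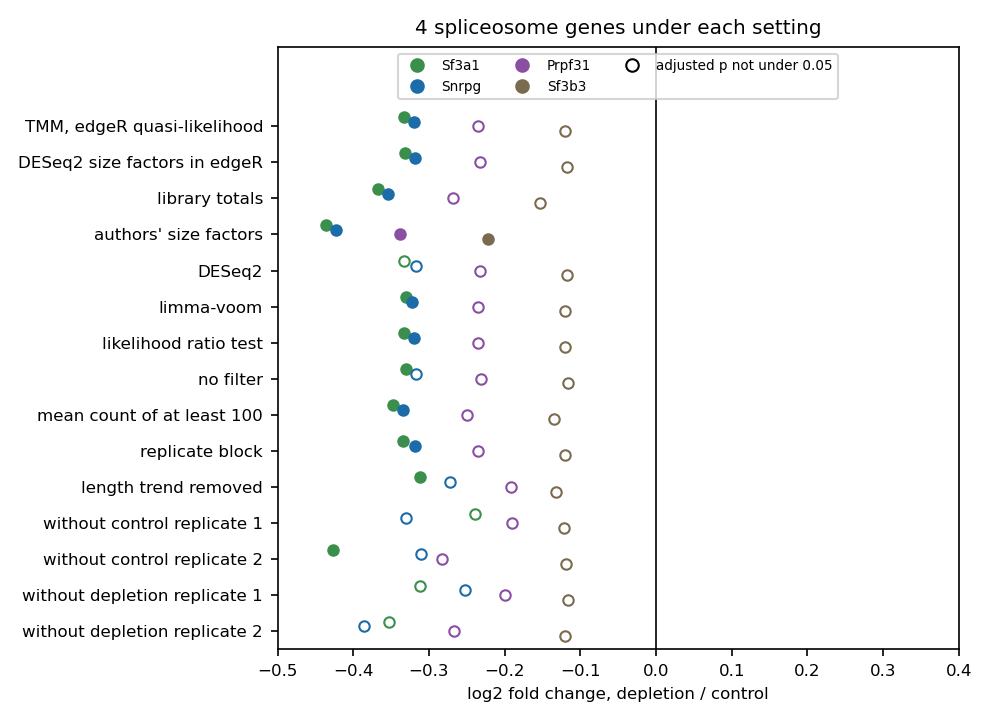
Log2 fold change of Sf3a1, Snrpg, Prpf31 and Sf3b3 under the reported test (top) and each of 14 alternatives, filled where the adjusted p was under 0.05. The falls of Sf3a1 and Snrpg keep their direction. Both calls are lost in DESeq2 and in fits without 1 library (Sf3a1 keeps its call without control replicate 2), and that of Snrpg also without a filter and with the length trend removed.

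Gene length was related to the fold change, as it was over all genes. The Spearman rho of fold change with annotated length was 0.24 over the 44 genes and 0.27 over 11844 genes, given as a description since genes share the same libraries. The 22 shorter genes (3.82 to 17.7 kb) had a median log2 fold change of -0.087 with 17 below 0. The 22 longer genes (17.8 to 158 kb) had a median of -0.015 with 12 below 0. Over all genes, the shorter 5922 (up to 22.2 kb) had a median of -0.057 with 3634 below 0. The longer 5922 had a median of 0.036 with 2356 below 0. The Sm genes were the shortest group, with a median length of 8.01 kb. Sf3a1, at 22.2 kb, lay close to the median length of all genes tested (22.2 kb) and kept its call when the trend was removed, at -0.31 with an adjusted p of 0.0281.

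**Figure D5:**
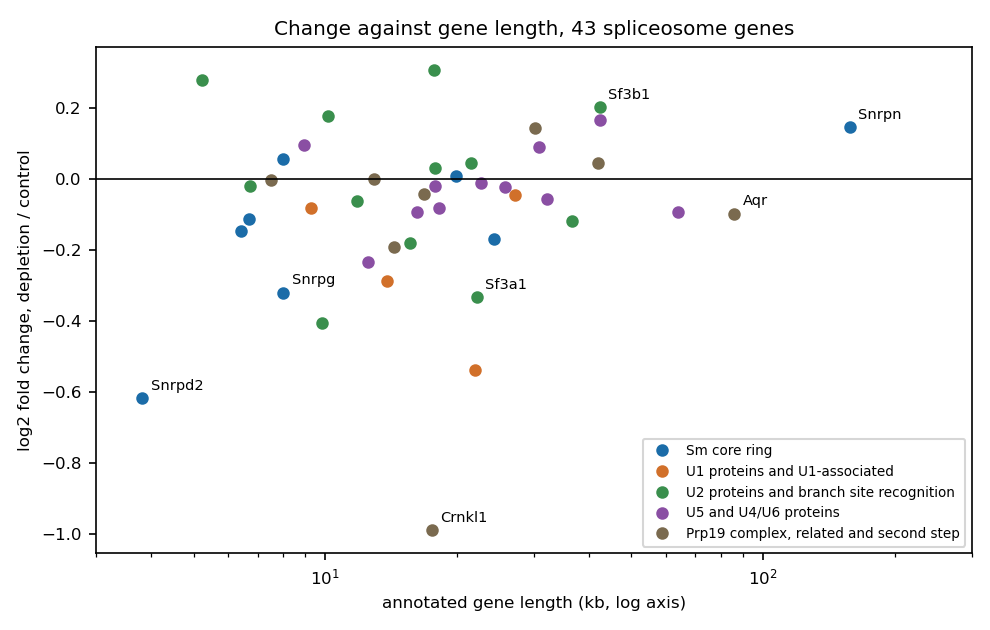
Log2 fold change against annotated gene length on a log axis for 43 spliceosome genes, coloured by role. Most of the shorter genes lie below 0, and the 2 genes that lie lowest, Crnkl1 and Snrpd2, have few counts.

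Neighbouring genes gave no call. A divergent gene whose start lay within 1000 bp upstream, or overlapped by less than 300 bp, was found for 12 of the 44 genes. Of these 12 partners, 11 were tested and edgeR called 0, with adjusted p from 0.435 to 0.987. Ccdc157 starts 57 bp from Sf3a1 on the other strand and had a log2 fold change of -0.016 with an interval from -0.56 to 0.53, from 19 to 36 counts a library. Tfpt, 56 bp from Prpf31, was at 0.28 with an interval from -0.15 to 0.71. No gene of the table overlapped any of the 44 on the same strand, and 7 overlaps were antisense, which the strand of the reads separates.

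RefSeq promoter windows (250 bases before to 50 after the start) were matched by symbol for 36 of the 44 genes and for 9292 genes tested in all. They were rich in CpG, with 10 or more in 33 of 36 windows (91.7%) against 85.0% of all windows, and had a median GC content of 57.8% against 61.3%. The ETS core CCGGAAG, on either strand, was in 16 windows (44.4%) against 19.3% of all windows, and the cyclic AMP response element core TGACGT in 11 (30.6%) against 12.5%. GC boxes (GGGCGG) were in 20 windows (55.6%) against 66.3%, and CCAAT in 16 (44.4%) against 39.0%. CACGTG was in 5 (13.9%) against 10.5%, AAGATGG, a YY1 core, in 3 (8.33%) against 7.48%, and TATAAA in 2 (5.56%) against 6.81%. The NRF1 core GCGCATG and ACTACAA, a core shared by ZNF143 and THAP11 sites, were each in 1 (2.78%), against 7.73% and 4.38%. None of the searched sequences contains another. A match is a description of letters and not of binding. Genes that hold the ETS core had a median log2 fold change of -0.095 (n = 16) and those without it -0.054 (n = 20), with ranges that overlap from -0.41 to 0.20.

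Other genes of the splicing pathway gave a similar picture. In 95 further genes analysed, from 98 listed symbols, edgeR called 3 lower (3.16%, against 1.4% of all genes) and 1 higher (1.05%, against 1.11% of all genes). Their log2 fold changes had a median of -0.048, and 58 lay below 0, against 50.6% of all genes. Rbm25, a U1-associated splicing regulator, gave 639 and 657 CPM in control cells and 530.0 and 536 CPM in depleted cells. The log2 fold change was -0.28 (SE 0.05, edgeR adjusted p 0.000452), and it was the single one of these genes that DESeq2 called too. The call was lost without depletion replicate 1 (adjusted p 0.0919) or 2 (0.0561). Snrnp70, which encodes the U1-70K protein, went from 191 and 200.3 CPM to 166 and 167 CPM, a log2 fold change of -0.23 with an adjusted p of 0.0405. Txnl4a, which encodes a small U5 protein, went from 215 and 226 CPM to 188 and 189 CPM, a log2 fold change of -0.22 with an adjusted p of 0.0439.

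The calls of Snrnp70 and Txnl4a were both lost in DESeq2, with the length trend removed (adjusted p 0.100 and 0.110), without control replicate 2 (0.157 and 0.169) and without either depletion library (0.280 to 0.297).

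Ddx46, a helicase that acts on the U2 snRNP, was the 1 gene called higher. Its level was 151 and 132 CPM without IAA and 169 and 169 CPM with it, a log2 fold change of 0.26 with an adjusted p of 0.0364. Its call was lost with library totals, with the recovered size factors, with the length trend removed, in DESeq2 and without control replicate 2 or either depletion library. By list, the other snRNP and Lsm genes held 2 lower calls among 17 genes tested (11.8%), with a median of -0.12. The other factors of the assembly and catalytic complexes held 1 lower and 1 higher call among 49 (2.04% each), with a median of 0.0027. Of all genes, 1.4% were called lower and 1.11% higher, and 2 calls are too few to set a list apart. The exon junction complex (5 genes, median -0.076), the minor spliceosome (10 genes, median -0.046) and the snRNP assembly and import factors (14 genes, median -0.11) held 0 calls in edgeR and in DESeq2. Of their 29 genes, 1, Clns1a, was lower at an unadjusted p under 0.05 in edgeR. At that threshold 7.66% of all genes were lower and 8.53% higher.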

How the data were processed

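PRO-seq reads were trimmed with cutadapt 1.18 and aligned with Bowtie 1.2.2 to mm10 according to the submitters' processing notes, and the authors kept uniquely placed reads, collapsed reads with the same molecular identifier and deposited whole-number counts per gene and library. A second deposited table holds the authors' mean normalized signal per gene, used here only to recover relative size factors (0.699 and 0.740 in controls, 1.32 and 1.24 in depletion libraries). These differ between replicates, whereas the methods describe 1 spike-in factor per condition, and how they were set was not resolved. Its columns of fold changes and p-values from DESeq2 hold the authors' own comparison and were not used.

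Counts were filtered with filterByExpr (minimum count 10, minimum total 15), which kept 11853 of 12486 genes, scaled by TMM and tested with glmQLFit and glmQLFTest in edgeR 4.0.16 (R 4.3.3, limma 3.58.1), 2 control against 2 depletion libraries, with Benjamini-Hochberg adjustment over all genes tested. DESeq2 1.42.0, limma-voom and other scalings and filters were alternatives. The submitters call the libraries replicates, and p-values measure the spread between them only. Replicates differed beyond counting noise (chi-square per degree of freedom 1.85 and 1.49). The correlation of same-numbered replicates' deviations was 0.034, so the numbers were not taken as pairs.

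On simulated counts for this comparison (11845 genes), 95.28% of true values lay inside their 95% interval, 1.504% of calls were false, and 17.5%, 58.75% and 98.72% of genes changed by log2 0.3, 0.5 and 1.5 were called. These counts were drawn from the fitted trend of dispersion, without spread of single genes around it. Rates on the real counts may be worse.

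Genes and lists were chosen with earlier results of these data known. Values per library are given by rule for genes with an adjusted p under 0.05, the 4 lowest and 4 highest fold changes, the highest and lowest mean CPM and the largest change in each role. The other genes given by library (Snrpc, Snrpn, Eftud2, Prpf19) were chosen after their values were seen. Positions are from GENCODE M21. The values of 1 of the 44 genes, counted in the summaries, are not reported here, and the plots leave it out. Sf3b5, and Coil of the other splicing lists, were not analysed here. Those lists also held Nhp2l1 and Ccdc94, older symbols of Snu13 and Yju2, which were analysed under the newer names.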

Additional observations from a re-analysis of the deposited data

How the results depend on the processing

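The falls of Sf3a1 and Snrpg kept their direction in all 14 alternatives, but the number of the 44 genes called lower did not hold. It was 4 with the authors' size factors, 1 without a filter on low counts, 1 with the length trend removed, 0 in DESeq2, 0 with a 2-fold change required, and between 0 and 1 with 1 library left out. Calls over all genes changed too. Called lower were 166 as reported, 164 without a filter, 144 with the length trend removed, 61 in DESeq2 and 38 at 2-fold. Called higher were 132 as reported, 64 with library totals, 59 with the length trend removed and 14 in DESeq2. The cause of these differences was not tested. The replicate block left 2 lower and called 1 higher, while over all genes it called 300 lower (2.53%) and 366 higher (3.09%), and the samples it pairs share only a number. The median log2 fold change of the 44 genes was -0.077 with library totals, -0.15 with the authors' size factors, -0.071 at a mean count of at least 100, -0.014 with the length trend removed, and between -0.068 and -0.051 with 1 library left out. Of the other splicing genes, 8 were called lower with the authors' size factors, 1 in DESeq2, 1 with the length trend removed, and between 0 and 3 with 1 library left out. Called higher were 0 with library totals, with the authors' size factors, in DESeq2 and with the length trend removed, and between 0 and 1 with 1 library left out. Their median was -0.082 with library totals, -0.15 with the authors' size factors, -0.027 with the length trend removed, and between -0.055 and -0.029 with 1 library left out. The median of all genes was -0.036 with library totals, -0.013 with the length trend removed and -0.11 with the authors' size factors. The authors' size factors called 698 genes lower and 49 higher against 166 and 132 as reported. With 2 libraries a group, each left-out library leaves a lone one whose spread is taken from the other group. Counts of 8 to 32 a library limit Crnkl1, Snrpd2 and Prpf40b.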
